A study of Mus musculus with 12 samples.

Results

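The cleavage and tailing machinery that makes the 3' ends of messenger RNA was followed in mouse oocytes with and without MTR4, the RNA helicase that hands nuclear RNA to the exosome for decay. The 10 genes were chosen by name as factors of histone pre-mRNA cleavage or of polyadenylation, and all 10 were found among the 23235 gene symbols of the table. They are Slbp, Lsm10, Lsm11, Cpsf2, Cpsf3, Sympk, Cstf2, Cstf2t, Papola and Pcf11. Poly(A) RNA of 10 oocytes per library had been sequenced with Smart-seq2, which primes cDNA on the poly(A) tail, covers whole transcripts and loses the strand. The labels list 12 libraries, 3 each from WT and Mtr4-null oocytes at day 14, when the oocytes were still growing, and at day 21, when they were germinal vesicle (GV) oocytes. All came from ovaries of female mice, and neither the strain nor the driver of the deletion was given in the sources used.

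The values are FPKM, read fragments per kilobase of transcript, scaled to library size, with 1 value per gene and group that the authors had averaged over libraries. No spread between replicates can therefore be given, no test was possible, and depth is unknown. Of the values above 0, between 55.4% and 57.4% close on repeated 3s or 6s in 3 of the columns, as a mean of 3 numbers would, but 0.162% do in the column of Mtr4-null day 21, which may average fewer libraries. FPKM are shares of each library's RNA, so a change in total RNA per oocyte cannot be seen, and less RNA of a gene per cell cannot be told apart from fewer cells holding it. Skiv2l2, the older symbol of the gene for MTR4, had 27.6 FPKM in WT oocytes and 1.57 in Mtr4-null ones at day 14, then 26.3 and 3.86 FPKM at day 21. All 8 oocyte markers, such as Zp3 and Gdf9, were present in every group, with summed levels from 10635 to 18142 FPKM. The 6 granulosa cell markers summed to 12.4 to 28.7 FPKM and the 6 theca and stroma markers to 0.836 to 1.42 FPKM. The 6 endothelial and blood markers summed to 2.19 to 20.9 FPKM, nearly all of it Pecam1, and Hba-a1 was listed at 0 in the 4 groups. Their part in the results below was not tested.

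An mRNA 3' end is made by cutting the nascent transcript. For most mRNAs, CPSF recognises a hexamer close to the cut, CstF binds downstream of it, the CPSF nuclease cuts, and poly(A) polymerase adds the tail. Replication-dependent histone mRNAs are cut by the same nuclease module but end in a stem-loop, which SLBP binds, and have no tail. There the U7 small nuclear ribonucleoprotein, with LSM10 and LSM11 in its ring, guides the cut. Growing oocytes store mRNA for the embryo, and SLBP is known in oocytes for its part in making histone proteins.

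Both kinds of end are shown here, because Slbp and Lsm11 encode proteins that act on the histone end while their own mRNAs carry a poly(A) signal. The sequences come from GENCODE vM21 transcripts of the GRCm38 assembly, are written 5' to 3' with T for U, and have the stem-loop of the histone transcripts and the AATAAA hexamer of the factor transcripts in capitals.
Hist1h4i: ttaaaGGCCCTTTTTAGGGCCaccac
Hist1h2ab: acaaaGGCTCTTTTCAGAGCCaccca
Slbp: aaaAATAAAgaccctttaactgacttgtaa
Lsm11: tggaaactgtAATAAAgatgattgtatcca
Each histone stem-loop has arms of 6 bases that pair around a loop of 4. The sense strand was searched for an arm GGNNCT, a loop NNTN and an arm AGNNCC in a row, with fully paired arms. Every transcript of a histone gene was searched, but only the longest coding transcript of any other gene. The stem-loop was found in 46 of 70 histone genes of the Hist1 to Hist4 clusters and in 31 of 21775 other protein-coding genes (0.142%). The commonest form, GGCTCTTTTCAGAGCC, stood in 26 histone genes. For the factors, the longest coding transcript of each was searched for AATAAA or ATTAAA, on the sense strand, within its last 40 bases. The hexamer was found in 6 of the 10, namely Slbp, Lsm11, Cpsf2, Cstf2, Sympk and, as ATTAAA, Pcf11, and in 70.1% of 21842 protein-coding genes. A match describes the letters only, and annotated transcript ends can lie away from the ends used in oocytes.

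Levels of the 10 factors spanned a wide range, and Slbp stood far above the rest. In WT oocytes at day 14, Slbp was at 1454 FPKM, rank 37 of all 23235 symbols, and made up 80.9% of the summed FPKM of the 10 genes. Lsm10 followed at 205 FPKM, then Papola at 49.5 and Cpsf3 at 44.1 FPKM. Cstf2, Cpsf2 and Cstf2t lay between 9.17 and 13.7 FPKM, and Lsm11, Pcf11 and Sympk between 2.74 and 3.91 FPKM. The order at day 21 in WT was the same but for Cpsf2, which stood above Cstf2. Neighbours in this order could not be set against their spread.

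**Figure D1:**
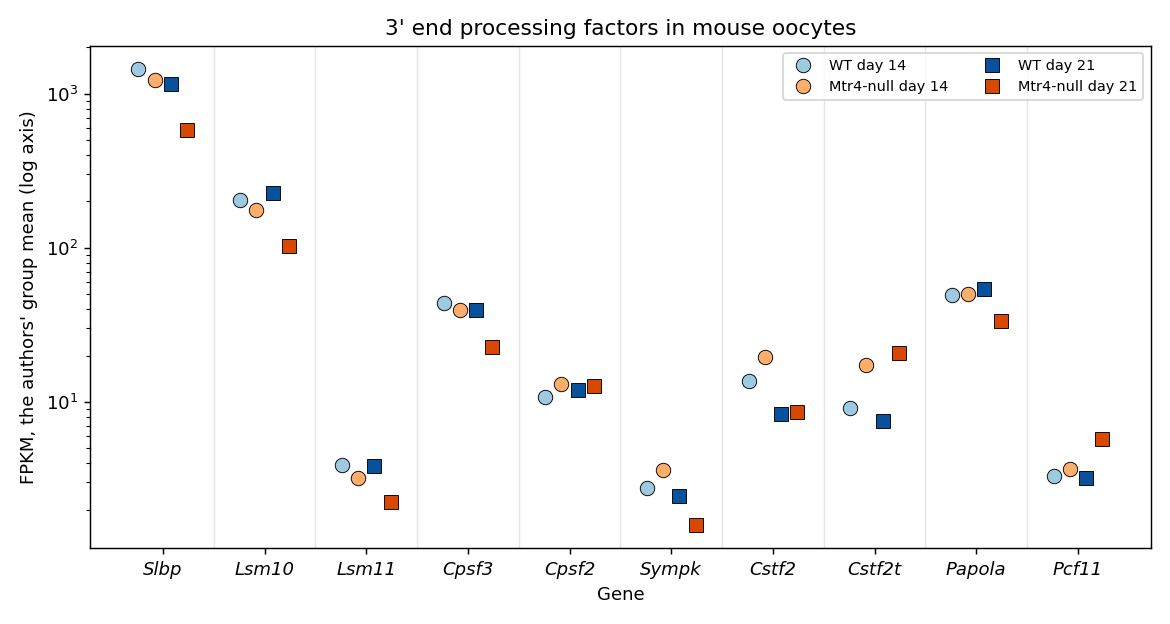
Group means of FPKM (log axis) for the 10 factors, with circles for day 14, squares for day 21, blue for WT and orange for Mtr4-null. Slbp stands at 581 FPKM or more in each group, and the Mtr4-null day 21 square is the lowest of the 4 symbols for Slbp, Lsm10, Lsm11, Cpsf3, Sympk and Papola, and the highest for Cstf2t and Pcf11.

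Genotype differences are given as Mtr4-null minus WT on the log2(FPKM + 1) scale, which understates the fold of genes at low FPKM. Counts of higher and lower genes take a difference of at least 2-fold on that scale, a rule of size and not a test. At day 14 none of the 10 factors was higher and none lower. Among the 11913 genes whose FPKM averaged 1 or more across the groups, 8.1% were higher and 1.55% lower. The median of the 10 was 0.058, beside 0.052 for all genes. At day 21, 1 factor was higher (Cstf2t) and 1 lower (Lsm10), where 20.2% of all genes were higher and 25.7% lower. The share of the factors was 10% in each direction, which is 1 gene each, too few to set the factors apart from the background. Their median was -0.50 and that of all genes -0.27, so each day 21 difference below is also given relative to the median of all genes. At day 21 the difference by genotype was larger than the WT difference with age for 8 of the 10 factors, and at day 14 for 6. The same count was not taken over all genes. Of all genes, only 2.02% were higher and 3.32% lower with age in WT, far fewer than by genotype at day 21. These counts therefore do not set the factors apart. The genotype contrasts at the 2 ages share no group, but both share their groups with the contrasts by age.

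**Figure D2:**
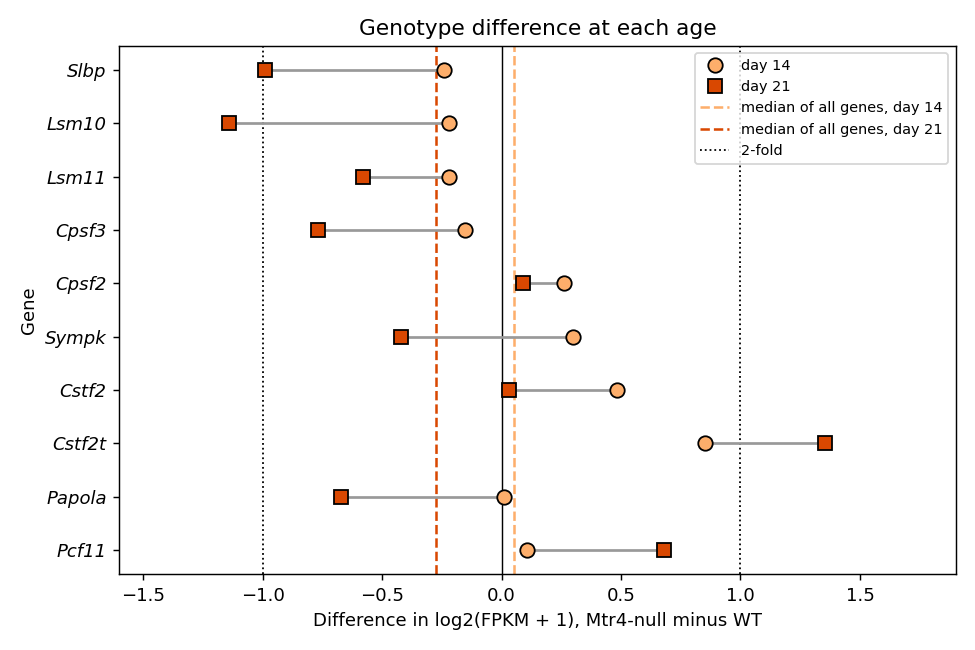
Difference in log2(FPKM + 1), Mtr4-null minus WT, for each factor at day 14 (circles) and day 21 (squares), with dashed lines at the median of all genes and dotted lines at 2-fold. All day 14 circles lie inside the 2-fold lines, while at day 21 Cstf2t (1.35) lies above them, Lsm10 (-1.14) below them and Slbp (-0.99) just inside.

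All 3 factors particular to histone mRNA, together with Cpsf3, had a negative difference at both ages, which held under each scaling tried. At day 14, 44.9% of all genes lay below -0.002, and at day 21 57.7% lay below -0.030, so a negative sign was common. Lower differences than those of these factors were held by 22.9% to 30.5% of genes at day 14 and by 21.4% to 39.5% at day 21. The share of all genes negative at both ages was not counted. Slbp, whose protein binds the histone stem-loop, had 1454 FPKM in WT oocytes and 1229 without MTR4 at day 14, then 1156 and 581 FPKM at day 21. The Mtr4-null day 21 group alone is far below the other 3. The log2 difference was -0.24 at day 14 and -0.99 at day 21, or -0.72 relative to all genes, and 26.1% of genes had a lower one at day 21. At a ratio of 1.99 Slbp stayed just short of the 2-fold mark. With each column scaled to the same sum (TPM) its day 21 difference was -1.10, and with quantile normalization -1.24, both past the mark. Slbp was still an abundant mRNA there, at rank 175.

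Lsm10 and Lsm11 replace SNRPD1 and SNRPD2 in the ring of the U7 particle. Lsm10 had 205 FPKM in WT oocytes and 176 without MTR4 at day 14, then 227 and 102 FPKM at day 21. It is the only factor counted as lower at day 21, with a log2 difference of -1.14, or -0.86 relative to all genes. That count was lost under median-of-ratios scaling, where the difference was -0.82. Lsm11, the larger of the ring proteins that are particular to U7, had 3.91 and 3.21 FPKM at day 14 and 3.83 and 2.24 FPKM at day 21, with log2 differences of -0.22 and -0.58. At day 21 Lsm11 lay at -0.30 relative to all genes. Lsm10 thus exceeded Lsm11 by 45.8-fold to 59.2-fold on the FPKM scale in the 4 groups. 

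At day 21 the spliceosomal counterparts of these ring proteins differed less, while at day 14 they differed by slightly more, with log2 differences of -0.27 for Snrpd1 and -0.34 for Snrpd2. Snrpd1 had 414 FPKM in WT oocytes and 362 without MTR4 at day 21, and Snrpd2 had 249 and 240 FPKM. The level of Lsm10 was 0.548 of that of Snrpd1 in WT and 0.283 in Mtr4-null oocytes at day 21, against 0.579 and 0.598 at day 14. The ratio was therefore similar in 3 groups and lower in Mtr4-null day 21. For Lsm11 over Snrpd2 it was 0.0154 in WT and 0.00930 in Mtr4-null oocytes at day 21. Among the 5 Sm proteins that U7 shares with the spliceosome, Snrpb was higher at day 21, at 41.2 and 119 FPKM. The other 4 were neither higher nor lower. That share, 20% higher, is near the 20.2% of all genes.

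The cleavage core of CPSF3, CPSF2 and symplekin serves both kinds of end, and its genes differed from each other. Cpsf3, which encodes the nuclease, had 44.1 FPKM in WT oocytes and 39.6 without MTR4 at day 14, then 39.4 and 22.7 FPKM at day 21. Its log2 difference at day 21 was -0.77, or -0.49 relative to all genes. Cpsf2, which encodes the related protein that pairs with the nuclease, had 10.7 and 13.1 FPKM at day 14 and 11.9 and 12.7 FPKM at day 21. Its log2 difference at day 21 was 0.089, or 0.36 relative to all genes. All 4 groups of Cpsf2 lay within a range of 0.26 on the log2 scale, the narrowest of the 10 factors. The ratio of Cpsf3 to Cpsf2 was 4.10 and 3.03 in WT and Mtr4-null oocytes at day 14, and 3.30 and 1.78 at day 21.

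Sympk encodes symplekin, the scaffold of the core. It had 2.74 FPKM in WT oocytes and 3.60 without MTR4 at day 14, then 2.45 and 1.58 FPKM at day 21. Its difference was positive at day 14 (0.30) and negative at day 21 (-0.42, or -0.15 relative to all genes), a pair of signs seen otherwise only for Papola. With an FPKM this low, the pseudocount weighs on the size.

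CSTF2 and its paralogue CSTF2T are the subunits of CstF that contact the RNA downstream of the cut. Cstf2 is X-linked, while Cstf2t is an autosomal copy without introns that is best known from male germ cells. Their coding sequences begin as follows, with the 13 of 60 bases that differ in capitals, because the results turn on telling the pair apart.
Cstf2: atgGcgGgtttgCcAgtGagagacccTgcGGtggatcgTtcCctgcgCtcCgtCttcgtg
Cstf2t: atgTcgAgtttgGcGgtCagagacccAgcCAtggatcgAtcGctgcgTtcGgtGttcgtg
Over the 1720 aligned coding bases the pair was 75.1% identical. The longest run without a difference was 26 bases, and none of the 4453 stretches of 50 bases in the Cstf2 transcript occurred in that of Cstf2t. Reads of that length can be assigned to 1 of the pair; the read length itself was not given.

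Cstf2t had the largest difference among the 10 factors at both ages in the values as deposited. It had 9.17 FPKM in WT oocytes and 17.4 without MTR4 at day 14, then 7.48 and 20.7 FPKM at day 21. Both Mtr4-null groups thus lay above both WT groups. The log2 difference was 0.85 at day 14 and 1.35 at day 21, or 1.63 relative to all genes, and the ratio of FPKM at day 21 was 2.76. At day 21, 84.0% of all genes had a lower difference, so a value of this size was common there. Cstf2 had 13.7 and 19.6 FPKM at day 14, a log2 difference of 0.48. At day 21 it had 8.40 FPKM in WT oocytes and 8.61 without MTR4, a log2 difference of 0.032, or 0.31 relative to all genes. The groups of Cstf2 were ordered by age, with both day 21 groups below both day 14 groups.

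The balance of the pair therefore differed most in Mtr4-null oocytes at day 21. Cstf2t made up 40.1% of the summed FPKM of the pair in WT at day 14, 47.0% in Mtr4-null at day 14 and 47.1% in WT at day 21. In Mtr4-null oocytes at day 21 it made up 70.6%. The sum of the pair was higher in Mtr4-null than in WT oocytes at both ages, at 36.9 against 22.9 FPKM and at 29.3 against 15.9 FPKM. 

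**Figure D3:**
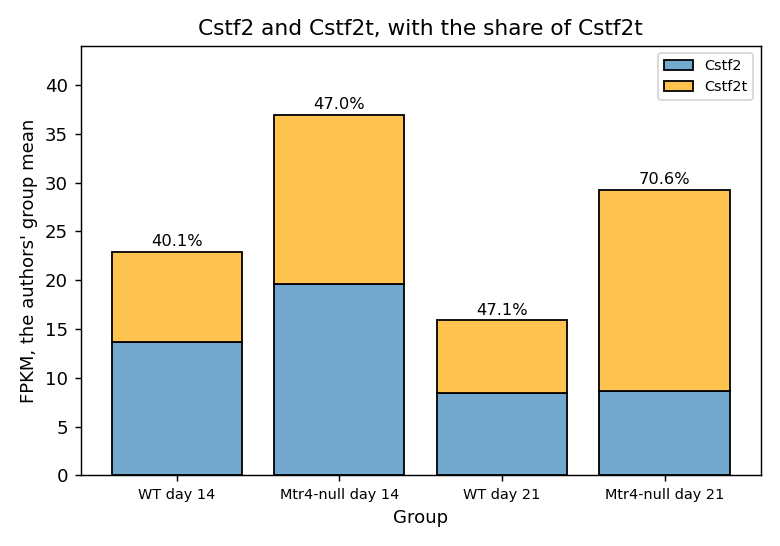
Summed FPKM of Cstf2 (blue) and Cstf2t (yellow) in the 4 groups, as the authors' group means, with the share of Cstf2t above each bar. The share is 70.6% in Mtr4-null day 21 and between 40.1% and 47.1% in the other groups.

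Cstf2t is the only one of the 10 with a single exon, and single-exon genes as a class also stood higher. Among genes that passed the filter and matched a GENCODE coding transcript (10950 genes, 91.9%), the 253 with 1 exon had a median log2 difference of 0.58 at day 14 and 1.05 at day 21. Genes with 10 to 19 exons, the class of Pcf11 (16), Cpsf2 (15), Cpsf3 (18) and Cstf2 (14), had a median of -0.54 at day 21. Genes with 20 or more, the class of Papola (22) and Sympk (27), had a median of -0.71. Cstf2t, at 1.35, lay above the median of its class at day 21, while Pcf11, Cpsf2 and Cstf2 lay above that of theirs and Cpsf3 below it. Slbp, with 8 exons, lay below the median of its class of 5 to 9 exons (-0.28). Lsm10 and Lsm11, with 2 and 4 exons, lay below the 0.13 of theirs. The part of exon number in these differences was not tested.

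Some factors overlap another gene in GENCODE, and reads from such stretches cannot be assigned without strand. Cstf2t lies within Prkg1 on the opposite strand but shares no exonic base with it. Prkg1 itself was lower in Mtr4-null oocytes, at 6.89 and 1.92 FPKM at day 21. Whether RNA from introns of Prkg1 was counted for Cstf2t was not tested, so the Cstf2t values are also uncertain. Cstf2 shares 399 exonic bases with Nox1, which reached at most 1.08 FPKM. It also overlaps Mir3112, without a shared exonic base. Mir3112 had 242 FPKM in WT oocytes and 99.3 without MTR4 at day 14, then 84.7 and 0 FPKM at day 21. Cpsf3 overlaps Itgb1bp1 and Gm25821, again without a shared exonic base. Itgb1bp1 had 49.0 and 31.7 FPKM at day 14 and 45.4 and 15.4 FPKM at day 21. Slbp shares 380 bases with Gm10459, Cpsf2 shares 147 with Ndufb1-ps and Pcf11 shares 241 with 6430511E19Rik and 26 with Gm26944, so these values are uncertain to that extent. Lsm10, Lsm11, Sympk and Papola overlap no other gene.

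Papola encodes the main nuclear poly(A) polymerase. It had 49.5 FPKM in WT oocytes and 49.9 without MTR4 at day 14, then 54.4 and 33.7 FPKM at day 21, so only the Mtr4-null day 21 group stood apart. The log2 difference was 0.010 at day 14, turning to -0.085 under median-of-ratios scaling, and -0.67 at day 21, or -0.40 relative to all genes. Its relative Papolg was lower at day 21, with 40.5 FPKM in WT oocytes and 10.3 without MTR4. Papolg was thus at 0.746 of the level of Papola in WT and at 0.307 in Mtr4-null oocytes at day 21.

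Pcf11 encodes a subunit of cleavage factor II that binds the tail of RNA polymerase II and is needed for termination. It had 3.32 FPKM in WT oocytes and 3.64 without MTR4 at day 14, then 3.22 and 5.76 FPKM at day 21. Next to Cstf2t, Pcf11 was the factor with the largest positive difference at day 21, at 0.68, or 0.95 relative to all genes. Its partner in cleavage factor II, Clp1, was higher by far more, with 5.11 FPKM in WT oocytes and 106 without MTR4 at day 21.

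In WT oocytes the factors, like most genes, differed little from day 14 to day 21. None was 2-fold higher or lower, where 2.02% of all genes were higher and 3.32% lower. The largest WT difference was that of Cstf2, at -0.65, followed by Slbp at -0.33. In Mtr4-null oocytes 2 of the 10 were lower at day 21 than at day 14, Cstf2 at -1.10 and Slbp at -1.08, and none was higher. Of all genes 18.6% were lower there and 9.08% higher. Under median-of-ratios scaling neither Slbp (-0.65) nor Cstf2 (-0.70) passed the mark. Cstf2t and Pcf11 were the only factors with a positive difference from day 14 to day 21 in Mtr4-null oocytes, at 0.24 and 0.54, as deposited. For Cpsf2 the sign of that difference depended on the scaling, at -0.033 as deposited and 0.36 under median-of-ratios scaling.

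The patterns of Slbp and Cstf2t were compared with those of all other genes that passed the filter, by the distance between log2 values of the 4 groups after each gene was centred on its own mean. Nearest to Slbp, of 11912 genes, were Nit1 at a distance of 0.031 and Arl4a at 0.032. Nit1, for example, had 30.6 and 25.5 FPKM at day 14 and 24.7 and 11.6 FPKM at day 21. Nearest to Cstf2t, the factor with the widest range (1.35), were Suv420h2 at 0.020, Ppp1r26 at 0.047 and Hfe2 at 0.082. Suv420h2 had 2.26 and 5.00 FPKM at day 14 and 1.72 and 6.01 FPKM at day 21. With 4 group means behind each pattern, close matches are easily found.

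The other genes of 3' end formation were grouped into 6 lists by function, whose counts are to be read against the 20.2% of all genes that were higher and the 25.7% that were lower at day 21. Of 17 further cleavage factors, Cstf3 alone passed the mark at day 14, or 5.88%, where 8.1% of all genes were higher. At day 21 the count was 6 higher and 2 lower, or 35.3% and 11.8% (7 and 1 genes under median-of-ratios scaling). Their median was -0.17, beside -0.27 for all genes. Cstf3, which encodes the subunit of CstF that holds CSTF2, was higher at day 14, with 17.8 FPKM in WT oocytes and 62.3 without MTR4, and it was also higher at day 21, at 21.9 and 84.1 FPKM. Cstf3 thus stood on the same side as Cstf2t at both ages, and the third subunit gene, Cstf1, was neither higher nor lower. The cleavage factor I gene Nudt21 had 52.3 and 156 FPKM at day 21 and its partner Cpsf7 had 1.88 and 12.2 FPKM. The other higher ones were Clp1, given above, Rbbp6, with 2.90 and 13.8 FPKM, and Ppp1r10, with 14.9 and 31.1 FPKM. The lower ones were the CPSF subunit genes Fip1l1, at 151 and 52.5 FPKM, and Cpsf4, at 26.2 and 11.2 FPKM, which belong to the same complex as Cpsf3.

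Of 13 genes for other poly(A) polymerases and poly(A) binding proteins, none was higher or lower at day 14. At day 21, 7 were lower (53.8%, against 25.7% of all genes) and 1 higher, with a median of -1.07, or -0.80 relative to all genes. Papolb had a mean under 1 FPKM and is not among those 8. Under median-of-ratios scaling 4 were lower. Besides Papolg they were Papd5 (13.0 and 5.53 FPKM), Papd7 (64.9 and 30.4 FPKM), Mtpap (78.3 and 30.2 FPKM), Pabpc4 (51.9 and 22.0 FPKM) and the oocyte forms Pabpn1l, with 460 FPKM in WT oocytes and 151 without MTR4, and Pabpc1l, at 154 and 39.2 FPKM. The somatic Pabpc1 was the higher one, at 9.32 and 28.1 FPKM. Papola lay closer to 0 than the median of this list.

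Of 15 other factors of histone mRNA supply and decay, 1 was higher at day 14 and 6 at day 21, and none was lower at either age. At day 21 that is 40%, against 20.2% of all genes, but Zcchc11, one of the 6, averaged under the 1 FPKM required of the genes in that background, and 5 of the remaining 14 were higher. The day 14 gene was Srrt, which links the cap to 3' processing, at 4.98 and 16.8 FPKM. Srrt makes up 6.67% of the list, where 8.1% of all genes were higher at day 14. At day 21 the higher genes included Ccne1, which activates the histone transcription factor NPAT, at 7.79 and 62.6 FPKM, and Lsm1, a decay factor, at 44.8 and 153 FPKM. The others were Mblac1 (1.51 and 5.15 FPKM), the cap-binding gene Ncbp1 (4.23 and 16.9 FPKM), Zcchc11 (0.0544 and 1.35 FPKM) and Ccne2 (14.6 and 46.1 FPKM). The list had a median of 0.90 at day 21, or 1.18 relative to all genes, whereas Slbp, Lsm10 and Lsm11 lay below 0. The U7 factors Zfp473 and Casp8ap2 were neither higher nor lower. At day 21 they lay at -0.79 and -0.54, or -0.52 and -0.26 relative to all genes. At day 14 Zfp473 lay at 0.43 and Casp8ap2 at -0.23. The other listed genes below 0 at day 21 were Upf1, at -0.77, and Mif4gd, at -0.030. Of the 15 listed, 11 lay above 0 at day 21 and 4 below. Integrator cuts small nuclear RNAs with a nuclease related to CPSF3. Of its 12 genes, Ints7 and Ints8 were higher at day 21, with 0.327 and 1.91 FPKM and with 17.7 and 47.4 FPKM, and Ints4, Ints9 and Ints12 lower. Ints4 had the largest negative difference of these, with 27.8 and 11.3 FPKM, and under median-of-ratios scaling none was lower. These shares, 16.7% higher and 25% lower, are near those of all genes. Of 7 termination genes 1 was higher (14.3%, beside 20.2% of all genes), Rprd1b, with 0.590 and 8.13 FPKM. 

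**Figure D4:**
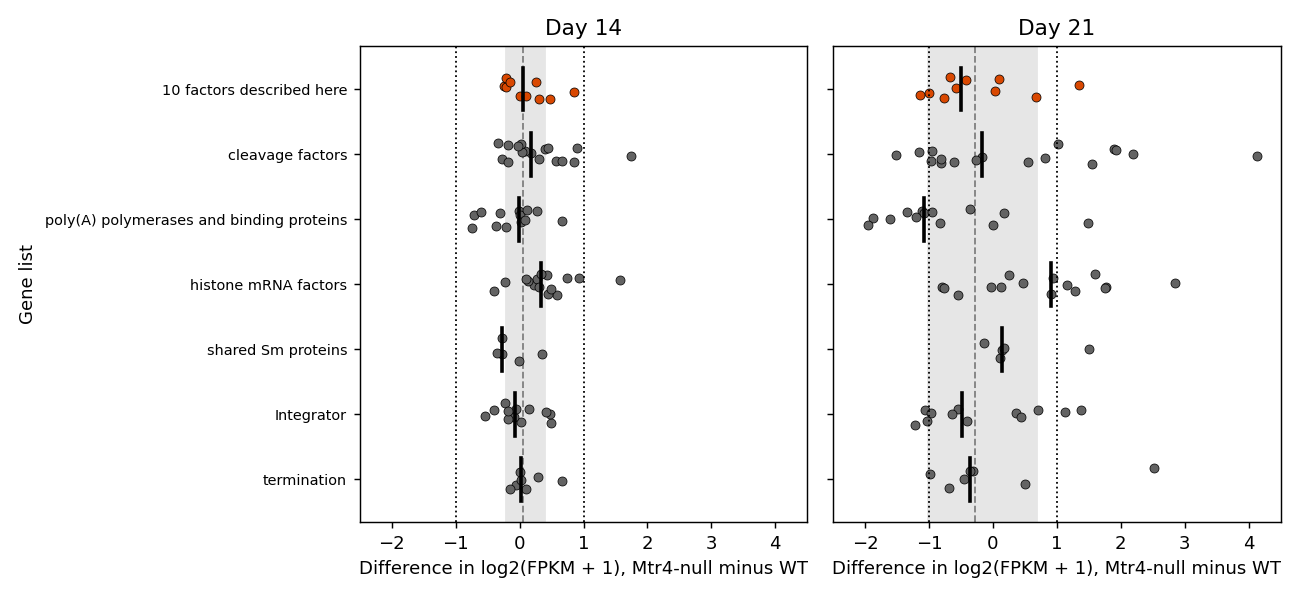
Difference in log2(FPKM + 1), Mtr4-null minus WT, for the 10 factors (orange) and 6 lists of related genes (grey) at day 14 and day 21, with a black bar at each median, the middle range of all genes (first to last quartile) shaded, their median dashed and 2-fold dotted. At day 21 the list of histone mRNA factors has its median at 0.90 and that of poly(A) polymerases and binding proteins at -1.07, with the 10 factors between them at -0.50.

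Replication-dependent histone mRNAs normally have no poly(A) tail, and these libraries were primed on tails, so their FPKM do not measure the level of histone mRNA. Beside the lower Slbp, the FPKM counted for 68 histone symbols summed to 359 in WT and 536 in Mtr4-null oocytes on day 14, then to 318 against 612 on day 21. Histone copies are near identical and can share reads, so single members are not compared.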

How the data were processed

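The authors deposited 1 table of FPKM with 4 columns, each taken as the mean of a group. The column of Mtr4-null day 21 may average fewer libraries than the others. Per the submitters' processing notes mm9 was the build and Cufflinks 2.2.1 and TopHat2 2.1.1 the tools, their roles unstated. The columns were matched to the groups by name. The planned limma fit, replicate blocks and left-out replicates need libraries and were not run on means. Differences of log2(FPKM + 1) were computed with pandas 2.3.3 and NumPy 2.4.6 in Python 3.11.15, with a pseudocount of 1. Counts use a 2-fold mark on that scale, and the background is all genes averaging 1 FPKM or more over the groups. The counting code was run on simulated group means without noise, with changes past the mark set in well expressed genes. That run checks the code only, not the handling of noise or of low FPKM. Exon numbers, overlaps and sequences came from GENCODE vM21 (GRCm38) by gene symbol or RefSeq synonym, using the longest coding transcript, and no coordinates are printed because the builds differ. Coding sequences were aligned with Biopython 1.88.

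The members and lists were chosen with earlier results of these data known. Named were all 10 factors, Skiv2l2, list genes at least 2-fold apart by genotype and, for likeness, the 3 genes nearest to Slbp and to the factor with the widest range, of which 1 is not reported here. Snrpd1, Snrpd2 and the genes overlapping a factor were added for comparison. Alternatives were a pseudocount of 0.1, median-of-ratios scaling, quantile normalization, scaling to TPM, a minimum mean FPKM of 5, no filter and, chosen after seeing the data, centring on the median of all genes.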

Additional observations from a re-analysis of the deposited data

How the results depend on the processing

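No paired analysis was possible because the table holds group means without replicate numbers, and for the same reason no library could be left out. The count of factors at least 2-fold lower in Mtr4-null oocytes at day 21, 1 as deposited, was 2 under TPM scaling and under quantile normalization and 0 under median-of-ratios scaling and when centred on the median of all genes. The count lower from day 14 to day 21 in Mtr4-null oocytes, 2 as deposited, was 0 under the last pair of settings, 1 under quantile normalization and 3 under TPM scaling or a pseudocount of 0.1. Counts of higher factors were the same under all settings in the 4 comparisons. 
The median of the 10 factors at day 14 turned from 0.058 to -0.028 under median-of-ratios scaling and -0.10 under quantile normalization. At day 21 it moved from -0.50 to -0.65 under TPM scaling, -0.65 with a pseudocount of 0.1, -0.67 with a minimum mean FPKM of 5 (which drops Lsm11, Sympk and Pcf11), -0.28 under median-of-ratios scaling and -0.23 when centred. From day 14 to day 21 in Mtr4-null oocytes it moved from -0.66 to -0.79, -0.77, -0.24, -0.36 and -0.39 under TPM scaling, the higher minimum, median-of-ratios scaling, centring and quantile normalization. Of 134 genotype values of single factors under another setting, 124 kept their sign and their side of the 2-fold mark. That count flatters the stability. The higher minimum and the setting without a filter change only the background, so single factors keep their values there by construction. Signs turned only near 0. By genotype at day 21, Cpsf2 went to -0.010 and Cstf2 to -0.066 under TPM scaling. At day 14, Papola went to -0.085, -0.087 and -0.041 under median-of-ratios scaling, quantile normalization and centring, and Pcf11 to -0.15 under quantile normalization. With age in Mtr4-null oocytes, Cpsf2 went to 0.36, 0.27 and 0.27 under the same 3 settings, and in WT Lsm11 went to 0.033 and Pcf11 to 0.049 under quantile normalization. The cause was not tested.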
